A study of Homo sapiens with 8 samples.

Results

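The miR-30 family is a set of closely related human miRNAs. Its members were taken by exact name, as 7 of the 2006 human miRNAs on the array: hsa-miR-30a-5p, hsa-miR-30a-3p, hsa-miR-30b-5p, hsa-miR-30c-5p, hsa-miR-30d-5p, hsa-miR-30e-5p and hsa-miR-30e-3p. A miRNA is a short RNA cut from a hairpin precursor, and the 5p and 3p arms are the products of its opposite strands. A miRNA pairs with messenger RNAs mainly through its seed, the bases 2 to 8 from the 5′ end, and lowers their stability or translation. The 5p arms of the miR-30 family share a seed although they come from several loci, and the family is known in breast and other epithelia for targets that act in epithelial-mesenchymal transition and cell adhesion.

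One-colour arrays were used to profile miRNAs in BT474 and SKBR3, established HER2-overexpressing breast cancer cell lines. BT474 is labelled positive for the estrogen and progesterone receptors. SKBR3 is labelled negative for the estrogen receptor and positive for the progesterone receptor, whereas the methods give it as negative for the latter. Cells of each line received either 6 μg/mL trastuzumab, an antibody against HER2, or PBS as control for 144 h. Each combination of line and treatment is labelled with 2 biological replicates. Of the 8 labelled arrays, the one labelled SKBR3 PBS replicate 1 was identical in all 62344 spots to BT474 PBS replicate 1, so that the 7 distinct arrays were used and SKBR3 PBS had a single array, assumed to vary like the other groups. PBS arrays lay in row 2 of the slide and trastuzumab arrays in row 1, so treatment and slide row cannot be told apart. The distinct BT474 arrays lay in columns 1 and 2 and the SKBR3 arrays in columns 3 and 4, so line and slide column cannot be told apart either.

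The mature sequences show how near the members are to each other. They are from RefSeq (GRCh38.p14) and were at hand for 5 of the 7 members. Capitals mark the seed, and each is written 5′ to 3′.
hsa-miR-30a-5p: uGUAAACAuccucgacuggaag
hsa-miR-30c-5p: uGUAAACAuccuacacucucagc
hsa-miR-30e-5p: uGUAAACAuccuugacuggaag
hsa-miR-30a-3p: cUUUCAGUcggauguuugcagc
hsa-miR-30e-3p: cUUUCAGUcggauguuuacagc
The 3 listed 5p arms have the seed GUAAACA and the 3p arms have UUUCAGU. Counted from 1 at the 5′ end, hsa-miR-30a-5p and hsa-miR-30e-5p differ by the single substitution C13U, and hsa-miR-30a-3p and hsa-miR-30e-3p by G18A. hsa-miR-30c-5p differs from hsa-miR-30a-5p at 5 of 22 positions. Cross-hybridization between such near-identical members was not tested. Among the 1687 miRNAs on the array with a mature sequence in the table, no miRNA outside the family had either seed.

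The hairpin of miR-30a lies on chromosome 6 at 71403551 to 71403621, and that of miR-30c-2 at 71376960 to 71377031, with 26.5 kilobases between them. The hairpins of miR-30e, on chromosome 1 at 40754355 to 40754446, and of miR-30c-1, at 40757284 to 40757372, lie 2.8 kilobases apart inside the protein-coding gene NFYC. The same hsa-miR-30c-5p is therefore made from both places, and its signal does not tell them apart. hsa-miR-30b and hsa-miR-30d form the 8q24 pair, with 4.3 kilobases between their hairpins.

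Among the 11 arms of miR-30a to miR-30e on the array, 6 were detected on all 7 distinct arrays. These were the 5 5p arms and hsa-miR-30e-3p. The other 5 arms were detected on no array: the member hsa-miR-30a-3p, and hsa-miR-30b-3p, hsa-miR-30c-1-3p, hsa-miR-30c-2-3p and hsa-miR-30d-3p. Of all 2006 miRNAs, 8.62% were detected on every distinct array. hsa-miR-30a-3p thus had no measured level and was not tested, and each count below is over the 6 members that were.

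The lines were first compared over both treatments, to see whether the 8q24 pair differed between them in the same way as the members of the other loci. The pair was higher in BT474, hsa-miR-30d-5p by 2.15-fold and hsa-miR-30b-5p by 1.62-fold, while hsa-miR-30a-5p was higher in SKBR3 by 2.44-fold. Signals are summed over the probes of a miRNA and quantile normalized over the arrays. The deposited sum leaves out a dim probe on some arrays, which was the case for hsa-miR-30a-5p on both BT474 PBS arrays, for hsa-miR-30b-5p on all 3 SKBR3 arrays, for hsa-miR-30c-5p on 2 SKBR3 arrays and for hsa-miR-30e-3p on all 7. Each result was therefore also taken with every probe summed, an alternative chosen after seeing the data. Between the lines this gave -1.13 (adjusted p = 0.000153) for hsa-miR-30a-5p on the log2 scale and 0.64 (adjusted p = 0.000777) for hsa-miR-30b-5p, and hsa-miR-30c-5p stood at -0.03 (adjusted p = 0.559).

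hsa-miR-30d-5p had normalized signals of 955 and 918 in BT474 PBS, 1297 and 1258 in BT474 trastuzumab, and 508 on each of the 3 SKBR3 arrays. Every BT474 array was above every SKBR3 array. Before normalization the same arrays read 946, 1110, 1595 and 2010 in BT474 and 252, 368 and 333 in SKBR3, so the equal SKBR3 values come from equal ranks and make the spread of this miRNA look small. The log2 difference between the lines was 1.11 (SE 0.04, limma adjusted p = 7.29e-05), and on the 75th percentile scale, where the values are not tied, it was 1.28 (adjusted p = 0.000276).

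hsa-miR-30b-5p had normalized signals of 2501 and 2379 in BT474 PBS and 3306 and 3411 in BT474 trastuzumab. In SKBR3 it had 1756 with PBS, and 1645 and 1901 with trastuzumab. The lines did not overlap, and the log2 difference was 0.70 (SE 0.07, adjusted p = 0.00204).

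hsa-miR-30a-5p went the other way. Its normalized signals were 129 and 126 in BT474 PBS and 248 and 259 in BT474 trastuzumab, against 455 in SKBR3 PBS and 412 and 434 in SKBR3 trastuzumab. All SKBR3 arrays were above all BT474 arrays. The log2 difference, BT474 minus SKBR3, was -1.29 (SE 0.04, adjusted p = 7.29e-05), and it was -1.83 (SE 0.06) within PBS and -0.74 (SE 0.05) within trastuzumab. On the BT474 PBS arrays the sum left out a probe, at 24.7 and 37.3, and on all other arrays it held both probes. This lowers the BT474 PBS signals, and the values within a treatment are given for the deposited sums alone.

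hsa-miR-30e-5p, which differs from it by a single base, had normalized signals of 722, 795, 918 and 988 in BT474 and of 1132, 1223 and 1057 in SKBR3. The lines did not overlap here either, with a log2 difference of -0.42 (SE 0.08, adjusted p = 0.0149). The opposite arm of that hairpin, hsa-miR-30e-3p, had a log2 difference of -1.05 (SE 0.21, adjusted p = 0.0141). Its signals before normalization were 59.1 to 125, where the lowest detected signal of an array was 19.3 to 28.3. The call was lost for hsa-miR-30e-5p without BT474 trastuzumab replicate 1 (-0.38, adjusted p = 0.0626) and for hsa-miR-30e-3p without SKBR3 trastuzumab replicate 2 (-0.96, adjusted p = 0.061). hsa-miR-30c-5p had normalized signals of 319 to 448 in BT474 and 307 to 377 in SKBR3. These ranges overlapped, and its log2 difference of 0.11 (95% interval -0.16 to 0.39) did not pass the test.

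**Figure D1:**
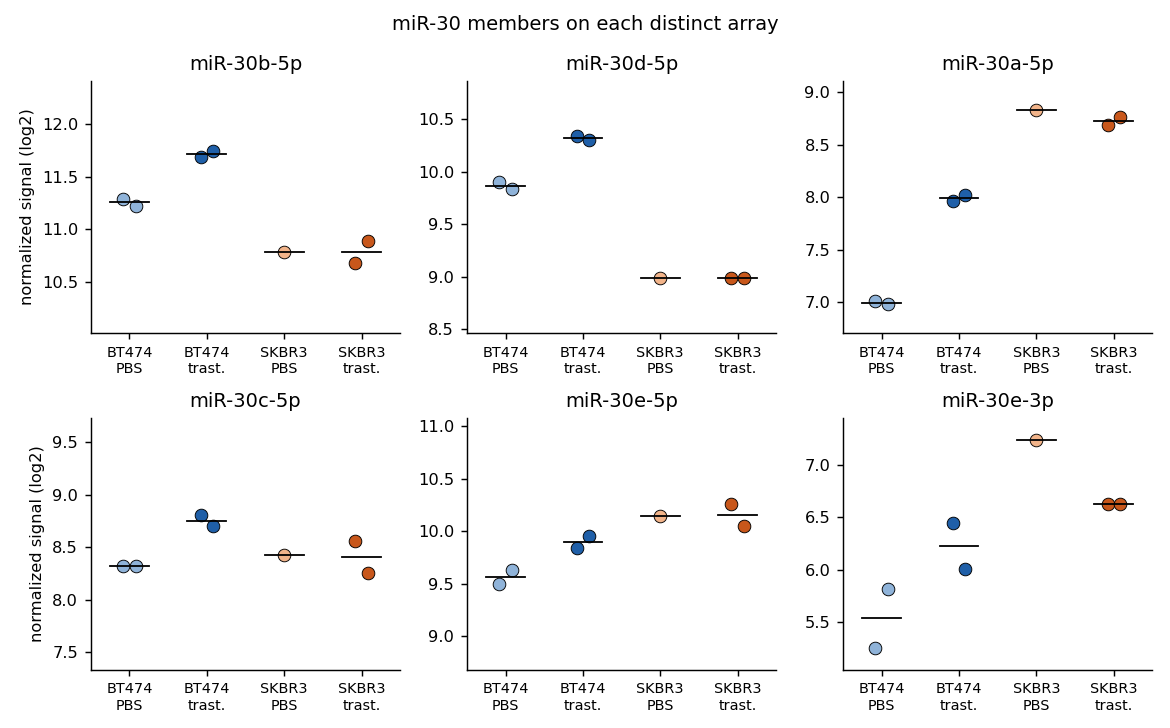
Normalized signal (log2) of the 6 detected members on the 7 distinct arrays, with a point per array and a line at the group mean; each panel spans the same range of log2 units. hsa-miR-30b-5p and hsa-miR-30d-5p are higher on all BT474 arrays, and hsa-miR-30a-5p on all SKBR3 arrays.

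By the adjusted p, 2 of 6 members were higher in BT474, where 33.4% of all 305 miRNAs tested were, and 3 of 6 were lower, where 35.1% were. The shares are near those of all miRNAs. The median log2 difference of the 6 members was -0.15, and that of all miRNAs tested was 0.0. The members were detected on every array, and over the 173 miRNAs for which this held the median was -0.42. Of these 173, 52 were called higher in BT474 and 92 lower. Within trastuzumab hsa-miR-30e-5p (-0.26, limma adjusted p = 0.101) and hsa-miR-30e-3p (-0.40, adjusted p = 0.251) were not called. Against the single SKBR3 PBS array these arms stood at -0.58 and -1.71. Within PBS 5 of 6 members were called in either direction, where 65.3% of all miRNAs were, and with the replicate number as a block 3 of 6, where 54.2% were.

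The order of the 4 groups differed by member. For hsa-miR-30d-5p and hsa-miR-30b-5p it was both SKBR3 groups, BT474 PBS and BT474 trastuzumab, and the SKBR3 groups did not differ beyond their spread. For hsa-miR-30a-5p it was BT474 PBS, BT474 trastuzumab and then both SKBR3 groups. There the PBS array was above both trastuzumab arrays, but the log2 difference of -0.11 (SE 0.06) did not pass the test. For hsa-miR-30c-5p, the BT474 PBS and SKBR3 PBS groups differed by -0.12 (SE 0.15), less than the error.

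The direction of the difference depended on the scale for the miR-30e arms. The median of all miRNAs was shifted by 0.86 towards BT474 where arrays were not normalized, and by 0.27 with scaling to the 75th percentile. Without normalization hsa-miR-30e-5p stood at 0.86 (adjusted p = 0.021) and hsa-miR-30e-3p at 0.47 (adjusted p = 0.148), both turned in sign, and relative to the median shift they stood at 0.0 and -0.39. With normexp on the spots hsa-miR-30e-3p stood at 0.03 (adjusted p = 0.846) and hsa-miR-30e-5p at -0.07 (adjusted p = 0.576), so that both calls were lost. That of hsa-miR-30e-5p was also lost with 75th percentile scaling (-0.05, adjusted p = 0.454). hsa-miR-30c-5p passed the test with 75th percentile scaling (0.40, adjusted p = 0.0116) and without normalization (1.30, adjusted p = 0.00566), by 0.13 and 0.44 relative to the shift. Its 2 probes gave only -0.11 and 0.24 on the former scale. hsa-miR-30a-5p stayed below 0 on each of these scales, but without normalization its value was -0.13 (adjusted p = 0.543), which was -0.99 relative to the shift. With normexp it was -0.57 (adjusted p = 5.12e-07), or -0.54 relative to the median. hsa-miR-30d-5p and hsa-miR-30b-5p stayed above 0 on each, at 1.01 to 1.33 and 0.70 to 1.06 relative to the median of all miRNAs.

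**Figure D2:**
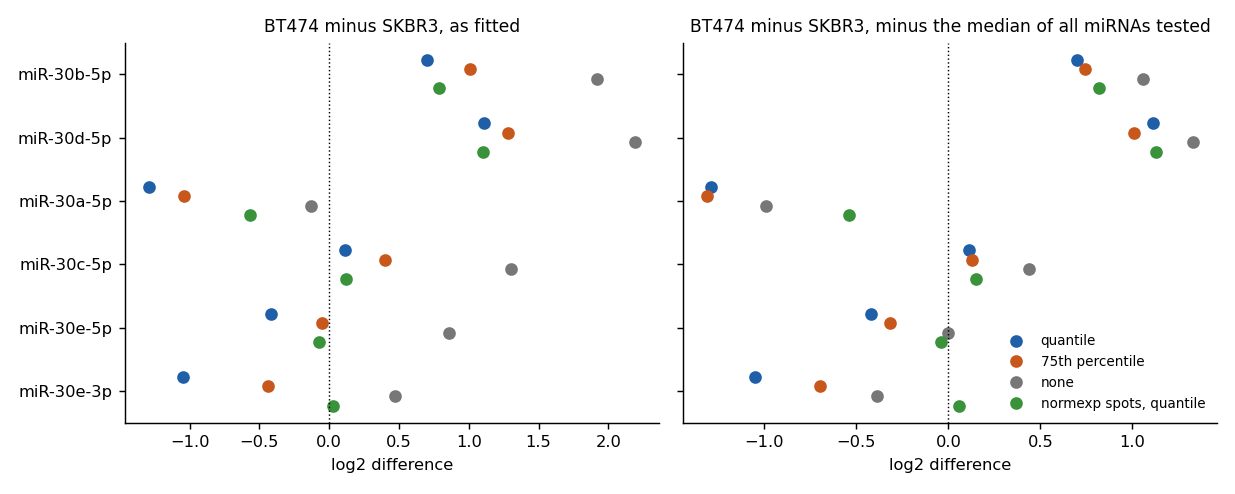
Log2 difference between BT474 and SKBR3 of each detected member under 4 scales, as fitted (left) and after subtracting the median of all miRNAs tested (right). The pair is above 0 throughout and hsa-miR-30a-5p below 0. The miR-30e arms change side with the scale as fitted, and after the subtraction hsa-miR-30e-3p does so with normexp, at 0.06.

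Each member is read by 2 or 3 different probes, and the differences were also taken probe by probe on the 75th percentile scale. The 3 probes of hsa-miR-30b-5p gave 0.73, 1.04 and 0.96 for BT474 minus SKBR3, and the 2 of hsa-miR-30d-5p gave 1.25 and 1.33. Those of hsa-miR-30a-5p gave -0.98 and -0.90. The probes of a miRNA thus had one direction for these 3 members. hsa-miR-30e-3p rests on 1 probe, which gave -0.44, as its other probe read 9.86 to 39.6 and was in no sum. The probes differed in sign for hsa-miR-30c-5p (-0.11 and 0.24) and for hsa-miR-30e-5p (0.04 and -0.06). On this scale the median of all miRNAs was shifted by 0.27 towards BT474, and each of these values lay below that.

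The comparison of loci was put in one value per array, the mean log2 signal of the pair minus that of hsa-miR-30a-5p, hsa-miR-30c-5p and hsa-miR-30e-5p, centred over the 7 arrays. It was 0.73 and 0.63 in BT474 PBS and 0.56 and 0.54 in BT474 trastuzumab. In SKBR3 it was -0.84 with PBS, and -0.92 and -0.67 with trastuzumab. The lines were therefore 1.43 apart (SE 0.09, with a residual SD of 0.11 over arrays), or 2.70-fold, made of 0.90 for the pair and -0.53 for the others. A shift common to all miRNAs of an array cancels in this value, which was 1.38 with 75th percentile scaling and 1.38 without normalization. No test was made of it, since the members were chosen with results known. Within the other loci the mean rests largely on hsa-miR-30a-5p.

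**Figure D3:**
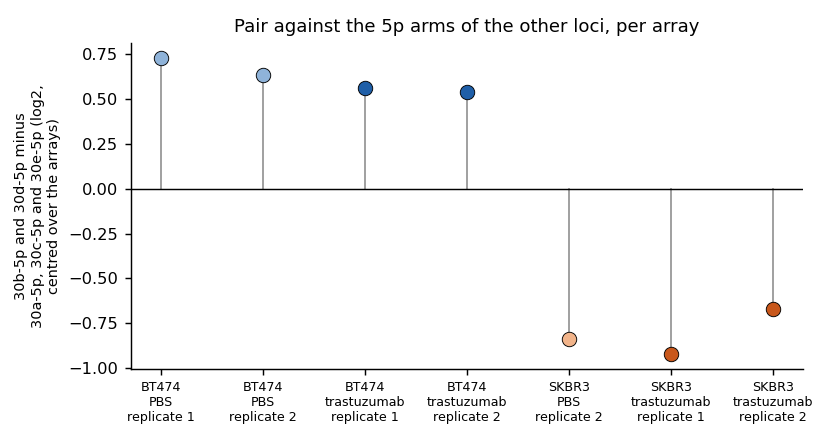
Mean log2 signal of hsa-miR-30b-5p and hsa-miR-30d-5p minus that of hsa-miR-30a-5p, hsa-miR-30c-5p and hsa-miR-30e-5p on each distinct array, centred over the arrays. The 4 BT474 arrays lie between 0.54 and 0.73 and the 3 SKBR3 arrays between -0.92 and -0.67.

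Of the 12 other miRNAs listed for 8q24, 5 were detected on at least 1 array and 3 on every array. hsa-miR-151a-5p was higher in BT474 by 2.53 (SE 0.04, adjusted p = 1.6e-05), with signals before normalization of 1636 to 2409 in BT474 and 145 to 179 in SKBR3. hsa-miR-1207-5p, by contrast, stood at -0.97 (SE 0.07, adjusted p = 0.000643) and hsa-miR-1234-3p at -1.66 (SE 0.19, adjusted p = 0.00281). hsa-miR-151a-3p gave 3.01 (SE 0.96, adjusted p = 0.0538), where 1 SKBR3 array without detection stood at the floor, so its size is not exact. It passed with 75th percentile scaling (3.36, adjusted p = 0.0318), without normalization (4.2, adjusted p = 0.00885) and with normexp (1.78, adjusted p = 3.93e-16). With every probe summed it did not (2.96, adjusted p = 0.0668). hsa-miR-939-5p was detected on 3 BT474 arrays, at 64.7 to 137 before normalization, and on no SKBR3 array, so that no exact difference is given. Without normalization the other 4 were above 0. hsa-miR-1207-5p and hsa-miR-1234-3p then stood at 0.15 and 0.05, which was -0.71 and -0.81 relative to the shift of all miRNAs. With normexp hsa-miR-1234-3p gave -0.15 (adjusted p = 0.169).

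The second question was whether the family changed with trastuzumab. In BT474, all 6 members had higher mean signals after trastuzumab, and the median log2 change was 0.45, against 0.0 for all 285 miRNAs tested. hsa-miR-30a-5p went from the 126 and 129 of the PBS arrays to 248 and 259, a log2 change of 0.99 (SE 0.05, adjusted p = 0.00245). With every probe summed it was 0.72 (adjusted p = 0.00586), whereas the deposited sums hold 1 probe on the PBS arrays and both on the trastuzumab arrays. Its fold change of 1.99 lay just under the threshold of 2, and the log2 change was 1.01, 1.0 and 1.04, past that threshold, without BT474 PBS replicate 1, PBS replicate 2 and trastuzumab replicate 1 in turn. hsa-miR-30d-5p changed by 0.45 (SE 0.05, adjusted p = 0.00771) and hsa-miR-30b-5p by 0.46 (SE 0.09, adjusted p = 0.0343). In each of these the trastuzumab arrays were above both PBS arrays.

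At the thresholds of the methods, an unadjusted p under 0.05 with a fold change above 2, limma called 0 of 6 members in BT474, where 13.7% of all miRNAs were called, and 5 of 6 had an unadjusted p under 0.05, where 39.3% of all miRNAs had. By the adjusted p, 3 of 6 were higher, where 15.4% of all miRNAs were. With the replicate number as a block this was 2 of 6, where 11.9% of all miRNAs were, as hsa-miR-30b-5p kept its change of 0.46 but had an adjusted p = 0.0815. It also missed the adjusted threshold without any 1 of the 4 BT474 arrays, with adjusted p from 0.0675 to 0.14. The test named in the methods, run in its plain form without the random variance model, gave 0 of 6 by the adjusted p, where 1.07% of all miRNAs passed, and 4 of 6 by the unadjusted, where 27.1% did. The remaining members gave 0.44 for hsa-miR-30c-5p, 0.33 for hsa-miR-30e-5p and 0.69 for hsa-miR-30e-3p, with adjusted p from 0.0756 to 0.147 in limma. The value of hsa-miR-30e-3p was 0.41 without BT474 PBS replicate 1 and 1.09 without PBS replicate 2. In the latter case, which leaves a single BT474 PBS array, this change and that of hsa-miR-30a-5p were past the fold threshold. With every probe summed, hsa-miR-30c-5p (0.43, adjusted p = 0.0161) and hsa-miR-30e-3p (1.18, adjusted p = 0.00978) also passed, and the latter, whose added probe was dim, was past the fold threshold.

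All 6 changes in BT474 stayed above 0 under the 4 scales, but not all calls by the adjusted p held. hsa-miR-30d-5p had an adjusted p = 0.053 with 75th percentile scaling and 0.0744 without normalization, and hsa-miR-30b-5p had 0.149 and 0.139, with changes of 0.25 and 0.70. For hsa-miR-30a-5p the adjusted p were 0.0164 and 0.056, with changes of 0.71 and 1.16. The latter passed the thresholds of the methods, as the 1 of 6 members called without normalization, where 37 of 287 miRNAs were. With normexp all 6 members passed, with adjusted p from 0.00025 to 0.0343, where 2.64% of the 2006 miRNAs then tested were higher and 1699 of those tested had been detected on no array. The 75th percentile scale shifted the median of all miRNAs by -0.22 and the unnormalized scale by 0.22. Relative to it, hsa-miR-30a-5p stood at 0.93 and 0.94, hsa-miR-30d-5p at 0.57 and 0.59, and hsa-miR-30b-5p at 0.47 and 0.48. On the spots after normexp, with an offset of 50 and all probes averaged, hsa-miR-30a-5p changed by 0.48, no more than hsa-miR-30d-5p at 0.50. The 2 probes of hsa-miR-30a-5p gave 0.78 and 0.38. The change of hsa-miR-30e-3p went from 0.69 to 0.11 (adjusted p = 0.486) with 75th percentile scaling, or 0.33 relative to the shift. With normexp it was 0.32.

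In SKBR3 the 1 PBS array was compared with the 2 trastuzumab arrays. limma called 0 of 6 members, where 12.3% of 227 miRNAs were called, and 0 of 6 had an unadjusted p under 0.05, where 30.4% of all miRNAs had. The methods' test in the same plain form gave none among the 4 members it could test, where 11.2% of all miRNAs had an unadjusted p under 0.05, as hsa-miR-30d-5p and hsa-miR-30e-3p had no spread there. By the adjusted p of limma 0 of 6 passed, where 18.9% of all miRNAs did, which is 43 of them and 20 with the replicate number as a block. The log2 changes were 0.01 (SE 0.11) for hsa-miR-30b-5p, 0.0 (SE 0.06) for hsa-miR-30d-5p, -0.02 (SE 0.15) for hsa-miR-30c-5p and 0.01 (SE 0.13) for hsa-miR-30e-5p. hsa-miR-30e-3p gave -0.62 (95% interval -1.53 to 0.29). On the 75th percentile scale, which shifted all miRNAs by 0.21, the 5p arms gave 0.10 to 0.36 and hsa-miR-30e-3p gave -0.06, and without normalization the latter gave 0.12. In the fit within the line, on the same values as the main result, hsa-miR-30e-3p had an adjusted p = 0.0494, with equal values on both trastuzumab arrays.

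**Figure D4:**
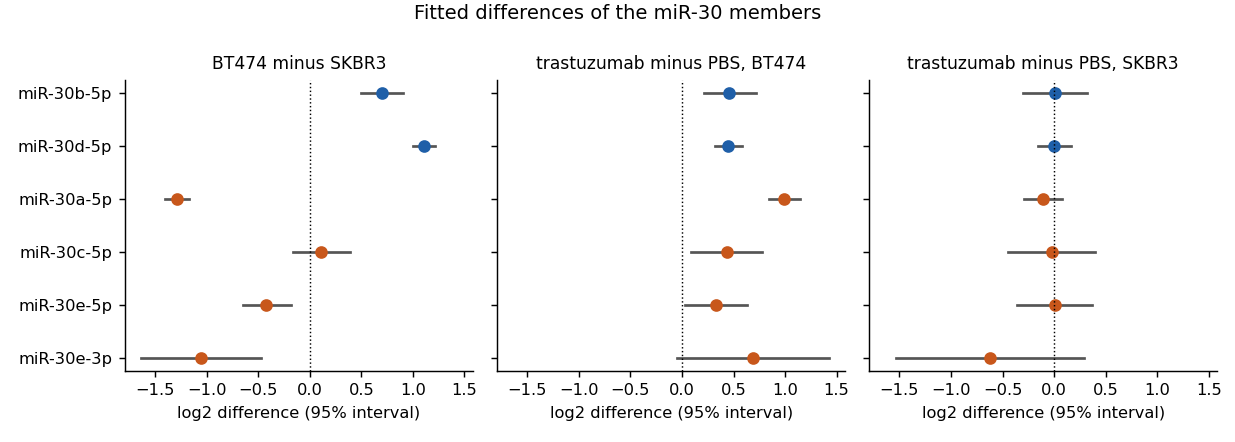
Fitted log2 differences of the 6 detected members with their 95% intervals, between the lines (left) and after trastuzumab in BT474 (middle) and SKBR3 (right); blue marks the 8q24 pair and orange the other members. hsa-miR-30a-5p stands at -1.29, 0.99 and -0.11 in the 3 panels.

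The difference between the responses of the lines was tested with an interaction contrast. hsa-miR-30a-5p changed by 1.1 more in BT474 than in SKBR3 (SE 0.08, adjusted p = 0.00615) and hsa-miR-30d-5p by 0.45 (SE 0.07, adjusted p = 0.0316). These were 2 of 6 members, where 16.1% of 305 miRNAs passed and 9.84% did so with the larger change in BT474. With the replicate number as a block, hsa-miR-30d-5p gave 0.47 (adjusted p = 0.0937), and the count over all miRNAs went from 49 to 22. On the 75th percentile scale neither passed, with 0.61 (adjusted p = 0.0755) and 0.06 (adjusted p = 0.774), where the median of all miRNAs was shifted by -0.39. hsa-miR-30b-5p, hsa-miR-30c-5p and hsa-miR-30e-5p were at -0.11, -0.09 and -0.14 on that scale, turned in sign from 0.45, 0.46 and 0.32. hsa-miR-30e-3p went from 1.31 (adjusted p = 0.136) to 0.17 (adjusted p = 0.537). Relative to the shift hsa-miR-30b-5p, hsa-miR-30c-5p and hsa-miR-30e-5p stood at 0.29, 0.30 and 0.26, hsa-miR-30e-3p at 0.56, hsa-miR-30a-5p at 1.0 and hsa-miR-30d-5p at 0.45. Without normalization hsa-miR-30a-5p gave 0.88 (SE 0.35, adjusted p = 0.337) and hsa-miR-30d-5p 0.33 (SE 0.28, adjusted p = 0.753), which did not pass, and with normexp hsa-miR-30a-5p gave 0.53 (adjusted p = 0.0266) and hsa-miR-30d-5p 0.44 (adjusted p = 0.0638). With every probe summed hsa-miR-30a-5p gave 0.85 (adjusted p = 0.014), and hsa-miR-30c-5p (0.54, adjusted p = 0.036) and hsa-miR-30e-3p (1.6, adjusted p = 0.0181) passed as well.

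The change of the pair minus that of the other loci was -0.13 (SE 0.11) in BT474, where both PBS arrays had higher values than both trastuzumab arrays. In SKBR3 it was 0.05 (SE 0.13), less than the error. Neither was tested, and the BT474 value was 0.06 with normexp on the spots and -0.04 with every probe summed.

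Outside the family, the profiles over the 7 arrays nearest that of the pair were those of hsa-miR-15a-5p, hsa-miR-107 and hsa-let-7i-5p. Their root mean square differences were 0.12, 0.14 and 0.15 on the log2 scale, where the median over 167 miRNAs was 0.774. hsa-miR-664b-3p, hsa-miR-423-5p and hsa-miR-4281 were nearest the mean of the other 5p arms, at 0.0961, 0.10 and 0.13, where the median was 0.514.

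Depth and cell markers also moved with the line. The summed signal of an array was 446651 to 606660 in BT474 and 246495 to 320578 in SKBR3, and 247 to 256 against 201 to 218 miRNAs were detected. Of the 6 epithelial miRNAs listed, all 6 were detected on each BT474 array, with sums of 29911 to 39348, and 2 of 6 on each SKBR3 array, with sums of 12720 to 17623. hsa-miR-200a-3p, hsa-miR-200b-3p, hsa-miR-429 and hsa-miR-205-5p were not detected in SKBR3, and hsa-miR-141-3p was the brightest on every array. None of the 5 fibroblast miRNAs was detected, and of the 6 blood miRNAs only hsa-miR-451a was, on 1 BT474 array at 57.3. The endothelial hsa-miR-126-3p was detected on 3 BT474 arrays at 51.6 to 88.5. Among the 3 muscle miRNAs, hsa-miR-1 was detected on the 4 BT474 arrays, at 127 and 173 with PBS and 286 and 382 with trastuzumab before normalization. Both trastuzumab arrays were thus above both PBS arrays in BT474. The part of depth and of these miRNAs in the difference between the lines, and of hsa-miR-1 in the BT474 response, was not tested.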

How the data were processed

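Total RNA was labelled with Cy3 and hybridized to arrays designed from miRBase. The authors deposited intensities as written by Agilent Feature Extraction 11.5.1.1, with no normalization between arrays: a summed signal and a detection flag per miRNA. They also deposited log2 values per probe, quantile normalized by the authors according to the methods.

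Summed signals of the 7 distinct arrays were quantile normalized, raised to a floor of 10 and log2 transformed. limma 3.58.1 in R 4.3.3 fitted 1 mean per group, with Benjamini-Hochberg adjustment within each of 6 contrasts over the miRNAs above the floor in the groups compared. The fit was tested on simulated data. Members, lists and tests were chosen with earlier results of these data known. Named miRNAs were all arms of miR-30a to miR-30e, sharers of a seed, a list for 8q24, and the 3 nearest profiles. The deviations of arrays with the same replicate number correlated at 0.30 within BT474 and at 0.15 and 0.12 between the lines, over 173 miRNAs. Within a line such arrays shared a slide column, so the numbers were taken as pairing, though with only 2 numbers per group. They were fitted as 1 term shared by both lines, not as pairs within each line. The alternatives were 18, of which 7 each left out 1 array and 1 was added after seeing the data. The normexp alternative added an offset of 50 to each spot and averaged the spots of all probes of a miRNA. Plots were made with matplotlib 3.10.9.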

Additional observations from a re-analysis of the deposited data

Results flagged for a closer look

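The response to trastuzumab differed between the lines for 2 members by the interaction contrast of limma. hsa-miR-30a-5p changed by 1.1 more in BT474 than in SKBR3 on the log2 scale, with both BT474 trastuzumab arrays above both PBS arrays and the 2 SKBR3 trastuzumab arrays below the PBS array after quantile normalization. The SKBR3 change turned in sign with the scale, from -0.11 to 0.10 with 75th percentile scaling and 0.28 without normalization. With every probe summed the difference in response was 0.85. Its adjusted p ranged from 0.00465 to 0.931 over the alternatives and passed in 11 of 14. The highest was with the copied array kept under its label, and the next was 0.337 without normalization. hsa-miR-30d-5p changed by 0.45 more in BT474, with an adjusted p from 0.0242 to 0.774 that passed in 8 of 14. Both rest on the single SKBR3 PBS array, and slide row cannot be told apart from treatment.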

How the results depend on the processing

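Direction between the lines turned without normalization for 2 of the members called there, as hsa-miR-30e-5p gave 0.86 and hsa-miR-30e-3p 0.47. With normexp on the spots hsa-miR-30e-3p gave 0.03 (SE 0.07), less than the error. The cause was not tested. The counts of miRNAs called were 39 in BT474, 28 in SKBR3, 209 between the lines and 49 for the difference in response. With the 173 miRNAs detected on every array alone they were 14, 10, 144 and 23. In the main fit 285, 227, 305 and 305 miRNAs were tested. With normexp they were 2, 15, 379 and 72, and without normalization the difference in response gave 25. With the copied array kept under its label they were 25, 23, 6 and 5, no member was called between the lines, and the pair minus the other loci was 1.04 between the lines and -0.74 for the SKBR3 change, because a BT474 array then stood among the SKBR3 arrays. The deposited log2 values gave 85 in BT474 and 119 in SKBR3, with 0 by the adjusted p in both (181 and 144 unadjusted). The methods' t-test, without the random variance model, gave 26 and 11 at their thresholds, and 3 and 0 after Benjamini-Hochberg, where 9 further SKBR3 miRNAs past the fold threshold had no spread and hence no test, a rule set after the counts were seen. With every probe summed they were 33, 29, 211 and 48. With normexp the pair minus the other loci was 1.11 between the lines and 0.06 for the BT474 change.

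The replicate block, which pairs arrays by number, gave 39, 28, 196 and 22. In these 4 comparisons it changed only 2 member calls, both named in the report. For the comparison within PBS the report gives the counts alone. Higher and lower calls in BT474 were 19 and 20, and 10 and 28 with 75th percentile scaling or 23 and 14 without normalization. Between the lines 102 and 107 became 165 and 21 without normalization. For the difference in response 30 and 19 became 16 and 35, and 11 and 14, in the same order, and 12 and 60 with normexp.

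Leaving out each array in turn gave 34 to 50 calls in BT474, 24 to 35 in SKBR3, 187 to 206 between the lines and 29 to 74 for the difference in response, the last without SKBR3 trastuzumab replicate 1 and without BT474 trastuzumab replicate 2. The pair minus the other loci ranged from 1.38 to 1.50 between the lines, from -0.22 to -0.10 for the BT474 change and from -0.08 to 0.16 for the SKBR3 change. Without SKBR3 trastuzumab replicate 1, hsa-miR-30d-5p no longer passed for the difference in response (0.46, adjusted p = 0.0716). Without SKBR3 PBS replicate 2 the lines could be compared within trastuzumab alone. The number of arrays limits the precision. In the main fit hsa-miR-30e-3p was the least precise member, with an SE of 0.21 between the lines, against 0.09 on the same arrays with 75th percentile scaling.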
